A study of Mus musculus with 10 samples.

Results

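The epithelial adhesion and tight junction genes Cdh1, Epcam, Jam2, F11r, Tjp1, Cldn4, Cldn6, Cldn7 and Ocln were followed in RNA-seq of mouse embryonic stem cells (ESC) of the C57BL/6 strain. The 9 genes were listed by name for their place in cell junctions, and no measured value entered the rule. Earlier results of these data were known when the genes were chosen, however, and the study had shown Jam2 as an example gene. The choice was thus not blind to the data. Their 15 features lay at 10 sites, of 43031 features at 28706 sites of 19371 named genes in the whole table. Each feature consists of 1 UCSC 3′UTR and the 2000 bases downstream of it. Features with identical coordinates were added up and are called a site here. Jam2 had 2 sites with separate 3′ ends, called the upstream and the downstream site, and the other 8 genes had 1 site each. The unit is TPM, StringTie's share of a feature in its library corrected for feature length. The length includes the added 2000 bases, which make up unequal parts of the features (the UTR is 169 bases long at Cldn7, 658 at Epcam and 3556 at the downstream site of Jam2), so that levels of different genes are set side by side only as levels of these features.

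The 9 libraries form 3 groups of 3. WT cells were wild type. DIDO3ΔE16 cells lacked exon 16, the exon particular to DIDO3, the largest protein of the Dido gene; this exon was flanked by LoxP sites and removed by a Cre transgene under Sox2 control. DIDO3ΔCT+HADIDO3 cells carried a C-terminal deletion of DIDO3 and were reconstituted with HA-tagged DIDO3, so that they are mutants with an added protein and not cells with a restored gene. All cells grew with serum and leukemia inhibitory factor on mitomycin-treated embryonic fibroblasts or on gelatin, and the labels do not say which. Of the 4 WT samples in the labels, the second and the third carry the same library number. They were counted once, as WT replicate 2-3. Nothing in the labels says that replicates were separate cultures, so the p-values measure the spread between these samples, which may be technical.

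Epithelial cells, and also naive ESC in compact colonies, hold together through junctions. In adherens junctions the calcium-dependent cadherin E-cadherin (Cdh1) binds its like on the neighbouring cell and is anchored to actin by catenins. In tight junctions claudins and occludin form strands that seal the space between cells, the immunoglobulin-type JAM proteins (Jam2, and F11r, which encodes JAM-A) lie beside them, and the scaffold ZO-1 (Tjp1) links them to actin. EpCAM is a homophilic adhesion protein of epithelia and of ESC that also binds claudin-7.

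The results turn most on the 2 ends of Jam2, so their sequences are shown first. Jam2 lies on the forward strand of chromosome 16 (mm10). The upstream site spans chr16:84809646-84812996 and the downstream site chr16:84822820-84828375, with 9823 bases between them. The GENCODE transcript that ends in the upstream site is the shorter one, with a coding sequence of 543 bases. The transcript that ends in the downstream site, the longer one, has 10 exons and a coding sequence of 894 bases. The last 30 bases of each, 5′ to 3′ with the polyadenylation hexamer AATAAA in capitals, were:
Jam2 shorter transcript, chr16:84810967-84810996: aacccttatgtAATAAAatttaaaaataat
Jam2 longer transcript, chr16:84825899-84825928: gaattAATAAAacattgtattctgatacaa
Both ends held the hexamer, which starts 19 bases before the end of the shorter transcript and 25 bases before that of the longer one. The same letters on the transcript strand were found in the last 30 bases of 35.48% of 58793 protein-coding transcripts. The upstream site lies in an intron of the longer transcript except for its last 98 bases, which fall in an exon of the longer transcript. As annotated, the shorter transcript ends before these bases, and reads of the longer one there add to the upstream site. Which transcript the reads in these bases came from was not tested. The downstream site runs 2447 bases past the annotated end of the longer transcript.

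Coverage times feature length came to 1.46 to 2.61 Gb per library, and 1 TPM stood for 0.434 to 0.775 reads per base. The library numbers of WT replicates 1 and 4 begin with C7A9 and those of all other libraries with C79M. These first letters were read here as a flow cell family, which the labels do not state. The far 3′ site of Dido1, the targeted gene, had 13.7 to 17.9 TPM in WT, 0.307 to 0.546 in DIDO3ΔE16 and 10.9 to 12.1 in DIDO3ΔCT+HADIDO3. All 12 ESC markers were measured, with a summed level of 6592 to 7869 TPM in WT, 8540 to 8986 in DIDO3ΔE16 and 6681 to 8652 in DIDO3ΔCT+HADIDO3. Nanog and Esrrb, sites of 4 and 3 features, weigh heavily in these sums. They spread from 3.10 to 676 and from 5.18 to 1155 TPM within WT, and Esrrb from 9.70 to 1903 within DIDO3ΔCT+HADIDO3. In DIDO3ΔE16 they had 1016 to 1177 and 1230 to 1271 TPM. The sums are thus not read as a difference of the markers between groups. The 10 markers of feeder fibroblasts, cells that could remain in the culture, summed to 93.8 to 102 TPM in WT, 197 to 206 in DIDO3ΔE16 and 96.7 to 104 in DIDO3ΔCT+HADIDO3. In DIDO3ΔCT+HADIDO3 most of this sum came from Thy1 (mean 54.4 TPM) and Pdgfrb (39.6). Of the feeder markers, Dcn and Lum were listed at 0 in every WT library, Lum in every DIDO3ΔE16 library and Col3a1 in every DIDO3ΔCT+HADIDO3 library. In RNA of a mixed culture, fewer cells of a type and less RNA per cell cannot be told apart.

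All 9 genes were detected in all 9 libraries. In WT, Cdh1 had the highest level (593 ± 10.2 TPM; SD, n = 3), followed by Cldn4 (505 ± 168) and Epcam (221 ± 9.49). The ranges of Cdh1 and Cldn4 overlapped in WT. Cldn7 (135 ± 22.2 TPM), the downstream (116 ± 11.4) and upstream (115 ± 4.05) sites of Jam2, F11r (97.9 ± 4.13) and Tjp1 (82.3 ± 63.9) formed a middle range. The neighbours in this order overlapped in WT except the upstream site of Jam2 and F11r, where the former was higher in each WT library. Ocln (17.1 ± 1.43 TPM) and Cldn6 (12 ± 2.01) were lowest. In DIDO3ΔE16 the downstream site of Jam2 was the highest of the 10 (477 ± 1.33 TPM), just above Cdh1 (449 ± 14.8), and their ranges did not overlap. In DIDO3ΔCT+HADIDO3 Cdh1 was highest (353 ± 3.66 TPM), followed by the upstream site of Jam2 (203 ± 5.46).

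**Figure D1:**
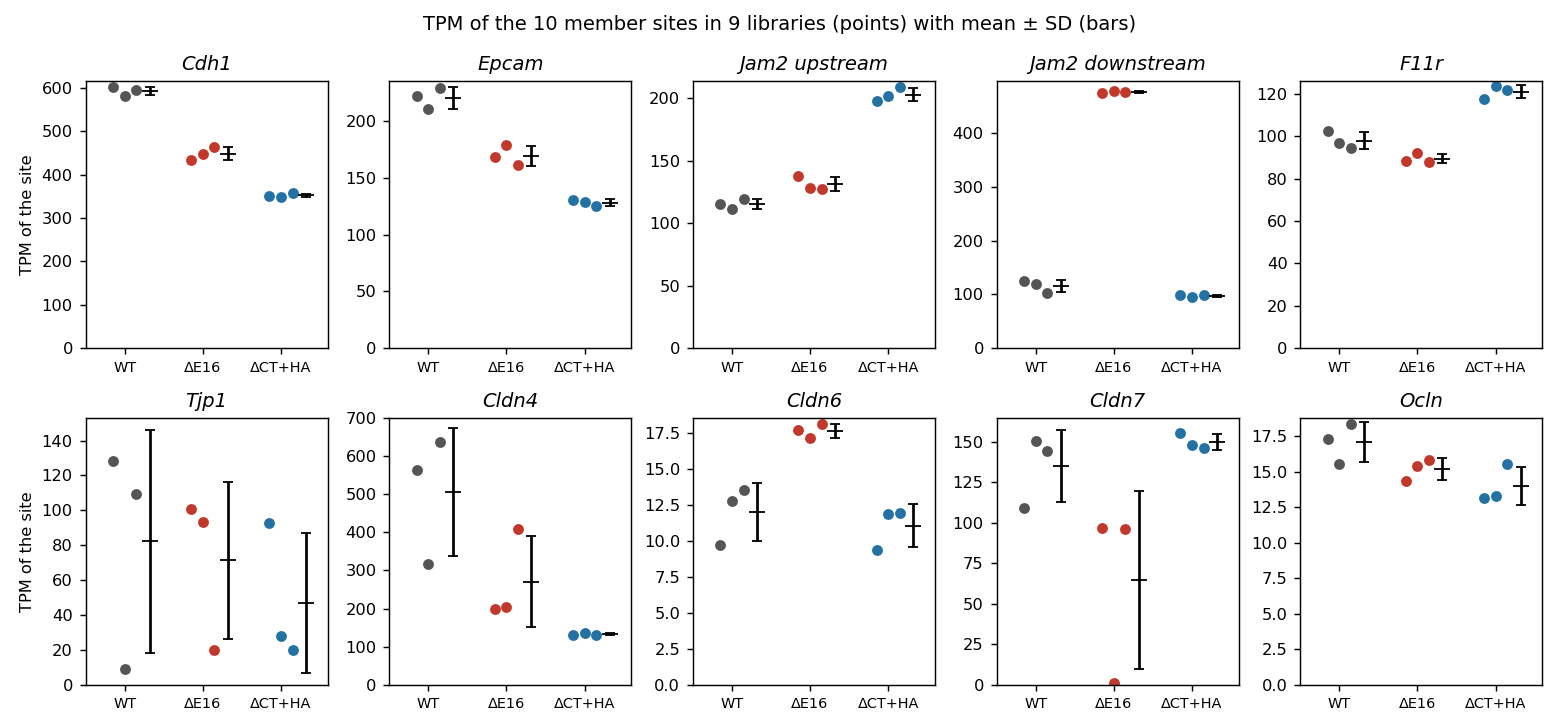
TPM (vertical axis, from 0) of the 10 sites in the 3 groups (horizontal axis; ΔE16 and ΔCT+HA stand for DIDO3ΔE16 and DIDO3ΔCT+HADIDO3), where each point is a library and each bar the mean ± SD of 3 libraries. Cdh1 and Epcam step down from WT to DIDO3ΔE16 to DIDO3ΔCT+HADIDO3, the downstream site of Jam2 is high in DIDO3ΔE16 only among the 3 groups, and Tjp1, Cldn4 and Cldn7 scatter within groups.

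Differences were tested with limma on log2(TPM + 0.1) across all sites, and a site was called where the log2 fold change was 0.7 or more in either direction with a Benjamini-Hochberg adjusted p under 0.05. A fold change on this scale understates the change of low sites. All 10 sites were above 0 in every library and were tested. In DIDO3ΔE16 compared with WT, 1 of the 10 sites was called higher (the downstream site of Jam2) and 0 lower, while 4 were lower at an unadjusted p under 0.05. Over all sites of that comparison 15.1% were called, 10.2% higher and 4.94% lower. In DIDO3ΔCT+HADIDO3 compared with WT, 3 sites were called lower (Cdh1, Epcam and Cldn4) and 1 higher (the upstream site of Jam2), where 17.3% of all sites were called, 7.24% lower and 10.1% higher. Between the mutants, as DIDO3ΔE16 minus DIDO3ΔCT+HADIDO3, 1 site was called higher (the downstream site of Jam2) and 0 lower, with 2 lower at an unadjusted p under 0.05. There 27.4% of all sites were called, 13.9% higher and 13.4% lower. The median log2 difference of the 10 sites was -0.21, -0.37 and 0.39 in the 3 comparisons, beside -0.012, -0.014 and 0.011 over all sites tested. The 2 comparisons with WT share the same WT libraries.

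Several sites had a small adjusted p at a difference short of the fold limit. An adjusted p under 0.05 at any fold was reached by 4 of the 10 sites in DIDO3ΔE16 against WT (33.2% of all sites), by 7 in DIDO3ΔCT+HADIDO3 against WT (38.4%) and by 6 between the mutants (49.2%). The libraries of the groups did not overlap at 7, 7 and 8 of the 10 sites, beside 49.4%, 53.5% and 61.6% of all sites tested.

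**Figure D2:**
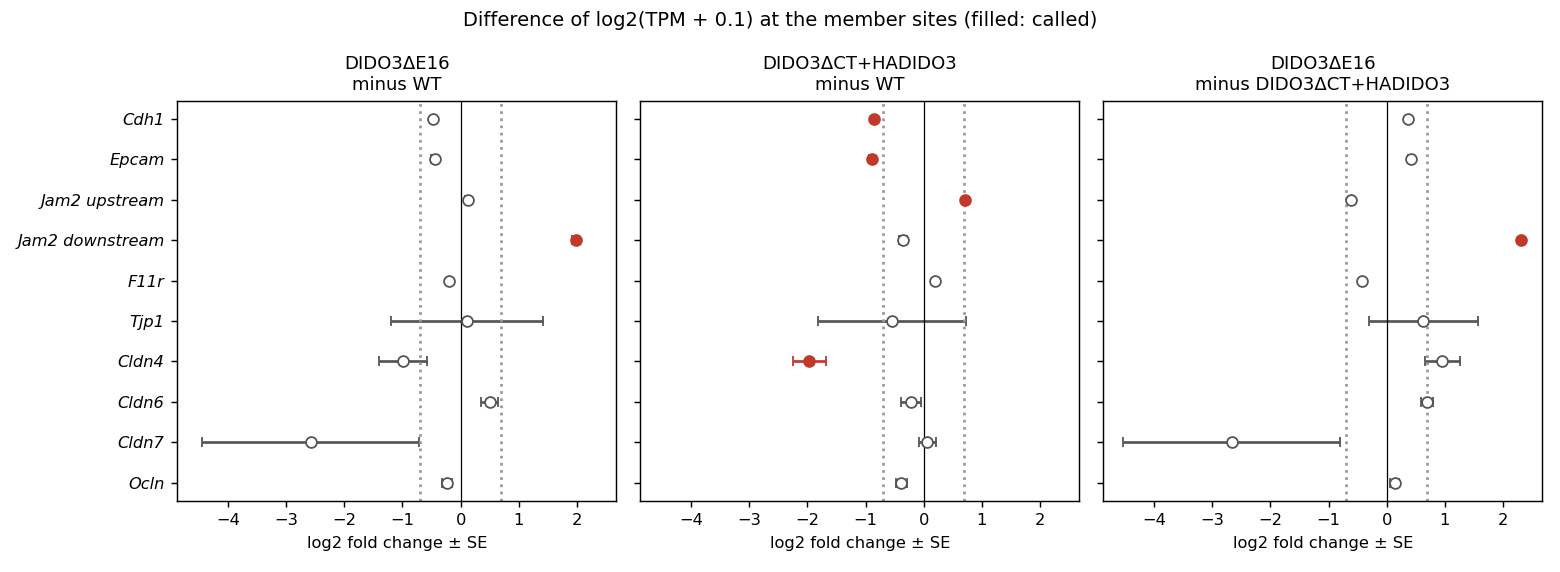
Log2 fold change with its SE (horizontal axis, the same in each panel) of the 10 sites (vertical axis) in the 3 comparisons, with called sites filled and dotted lines at the fold limit of 0.7. The downstream site of Jam2 stands at 1.98 in DIDO3ΔE16 against WT and at 2.31 between the mutants, and the widest bars belong to Tjp1 and Cldn7.

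Jam2 encodes a junctional adhesion molecule of tight junctions that is also present on ESC. Its downstream site had 125, 120 and 103 TPM in WT replicates 1, 2-3 and 4. In the 3 DIDO3ΔE16 libraries it had 476, 479 and 476 TPM. In the 3 DIDO3ΔCT+HADIDO3 libraries it had 98.7, 95.4 and 98.7 TPM. Every DIDO3ΔE16 library was thus above every other library, and the DIDO3ΔCT+HADIDO3 libraries lay below those of WT without overlap. The downstream site rose 3.94-fold in DIDO3ΔE16 relative to WT (log2 1.98 ± 0.067 SE, adjusted p = 0.000144). In DIDO3ΔCT+HADIDO3 it was lower than in WT by a difference short of the fold limit (log2 -0.35 ± 0.072, adjusted p = 0.0156). Between the mutants it was 4.95-fold higher in DIDO3ΔE16 (log2 2.31 ± 0.029, adjusted p = 6.73e-06).

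The upstream site of Jam2, where the shorter transcript ends, had another order of the groups. It had 115, 111 and 119 TPM in WT, 138, 128 and 128 in DIDO3ΔE16, and 198, 201 and 209 in DIDO3ΔCT+HADIDO3. The DIDO3ΔCT+HADIDO3 libraries were highest, and no 2 groups overlapped. The upstream site rose 1.64-fold in DIDO3ΔCT+HADIDO3 relative to WT (log2 0.71 ± 0.040 SE, adjusted p = 0.000317), just past the fold limit, and without WT replicate 2-3 the value of 0.69 (adjusted p = 0.00221) was just short of it. In DIDO3ΔE16 the difference from WT was 0.13 ± 0.055 on the log2 scale (adjusted p = 0.145). Both sites together had 222 to 240 TPM in WT, 604 to 614 in DIDO3ΔE16 and 297 to 307 in DIDO3ΔCT+HADIDO3. When the sites of each gene were added up, the log2 difference of Jam2 from WT was 1.32 ± 0.034 SE in DIDO3ΔE16 (adjusted p = 5.87e-05) and 0.29 ± 0.033 in DIDO3ΔCT+HADIDO3 (adjusted p = 0.00176, short of the fold limit).

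The share of the downstream site in the TPM of both sites separated the 3 groups. It was 52.1%, 52.0% and 46.5% in the WT libraries, 77.6%, 78.9% and 78.9% in DIDO3ΔE16 and 33.3%, 32.1% and 32.1% in DIDO3ΔCT+HADIDO3. DIDO3ΔE16 was thus above WT and DIDO3ΔCT+HADIDO3 below it, with no overlap between any groups. The mean share was 50.2% ± 3.24 (SD, n = 3) for WT, 78.4% ± 0.751 for DIDO3ΔE16 and 32.5% ± 0.662 for DIDO3ΔCT+HADIDO3. The differences from WT were 28.2 and -17.7 percentage points, and that between the mutants was 45.9 points. Each had an exact 2-sided permutation p of 0.1, the smallest that 3 against 3 libraries allow. A share of this kind compares mean coverage over a stretch of 3351 bases with that over 5556 bases. It shows that the sites changed unequally and not that either was constant.

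**Figure D3:**
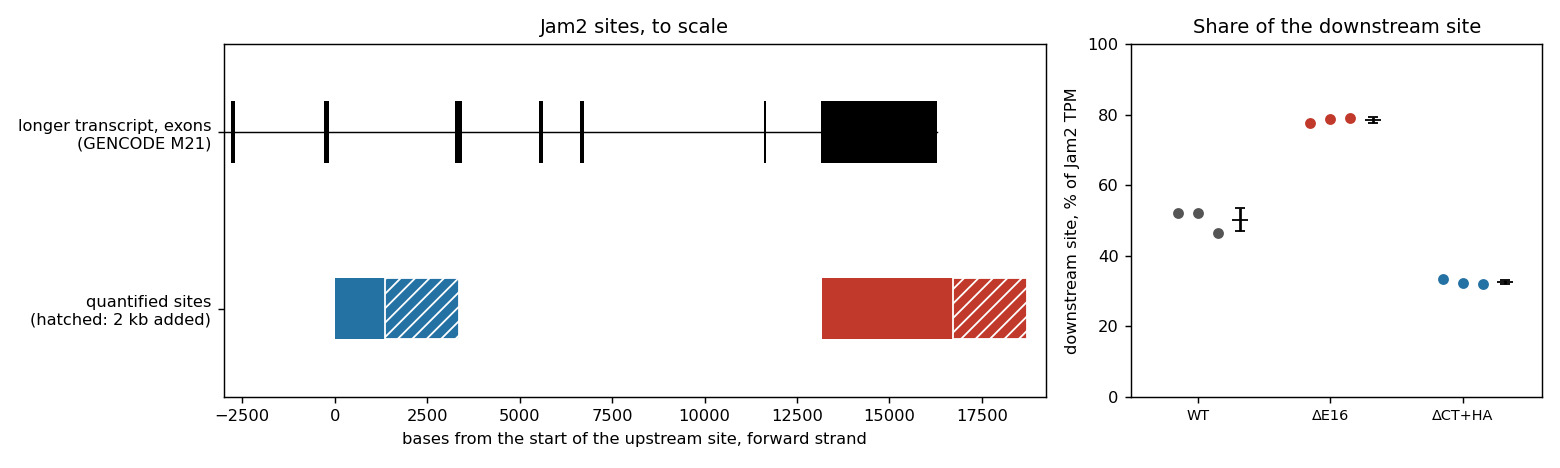
Left, map of the quantified Jam2 sites (blue upstream, red downstream, with the added 2000 bases hatched) below the exons of the longer transcript, drawn to scale in bases from the start of the upstream site; exons further upstream are not drawn. Right, percent of Jam2 TPM in the downstream site per library (points) with mean ± SD, where all DIDO3ΔE16 libraries are at 77.6% or above and all DIDO3ΔCT+HADIDO3 libraries at 33.3% or below.

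The downstream site shares 2087 bases with the end of Atp5j on the opposite strand (chr16:84825871-84827957), a subunit gene of ATP synthase, which every cell uses. All 5 Atp5j features were listed at 0 TPM in all 9 libraries, which can be a failed estimate and does not show that the gene was silent. The authors describe the sequencing as stranded, but StringTie's recorded command sets no option for strand, so whether reads of Atp5j were counted at the downstream site cannot be told from the sources used here. The part of this overlap in the differences of the downstream site was not tested. The upstream site shared no base with another feature. The differences were about as large within the flow cell family of the mutants: with WT replicate 2-3 as the single WT library, the downstream site differed from DIDO3ΔE16 by 1.91 on the log2 scale (adjusted p = 0.000524), and the upstream site from DIDO3ΔCT+HADIDO3 by 0.76 (adjusted p = 0.00712). The lone WT library is assumed there to vary like the mutant libraries.

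Cdh1 (chr8:106668616-106672247, forward strand) encodes E-cadherin. Its site had 602, 582 and 596 TPM in WT. The DIDO3ΔE16 libraries had 434, 449 and 463 TPM, and the DIDO3ΔCT+HADIDO3 libraries 352, 350 and 357. The 3 groups did not overlap, with DIDO3ΔE16 between the others. In DIDO3ΔCT+HADIDO3 Cdh1 fell to 0.554 of the WT level (log2 -0.85 ± 0.029 SE, adjusted p = 0.000107). In DIDO3ΔE16 it was at 0.723 of the WT level (log2 -0.47 ± 0.030, adjusted p = 0.000553), which is short of the fold limit. Between the mutants it was higher in DIDO3ΔE16 by 0.37 ± 0.029 (adjusted p = 0.000425), again short of it.

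Epcam (chr17:87650470-87653127, forward strand) followed the same order of groups at a lower level. It had 222, 210 and 229 TPM in WT, 168, 179 and 161 in DIDO3ΔE16, and 130, 129 and 125 in DIDO3ΔCT+HADIDO3. Here too no groups overlapped. The fall in DIDO3ΔCT+HADIDO3 was to 0.541 of WT (log2 -0.89 ± 0.053 SE, adjusted p = 0.000381), and in DIDO3ΔE16 the value was 0.735 of WT (log2 -0.44 ± 0.058, adjusted p = 0.00400), short of the fold limit. With WT replicate 2-3 as the single WT library the log2 differences of DIDO3ΔCT+HADIDO3 were -0.83 for Cdh1 and -0.82 for Epcam (adjusted p = 0.00670 and 0.0121), and those of DIDO3ΔE16 were -0.45 and -0.39. Both genes had 1 feature that shares no base with another, with a mean coverage of at least 188 reads per base at Cdh1 and at least 73.1 at Epcam. Of sites of this kind with a mean of at least 10 TPM, 0.652% (29 of 4445) differed by more than 2-fold within a group.

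Feeder fibroblast markers differed from WT in both mutants. In DIDO3ΔE16 their sum was higher than in WT in every library. In DIDO3ΔCT+HADIDO3 the sum overlapped that of WT but does not describe most of its markers. Thy1 (54.4 against 19.1 TPM in WT) and Pdgfrb (39.6 against 5.16) were higher and made up most of it. Of the 6 markers tested, 4 were called lower, among them Col1a2 (0.239 against 18.2 TPM) and Fbln2 (2.45 against 33.9). Their part in the differences of Cdh1 and Epcam was not tested.

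F11r encodes JAM-A, of the same protein family as Jam2, and its site (chr1:171463095-171466593, forward strand) shares no base with another feature. It had 102, 96.9 and 94.4 TPM in WT, 88.3, 91.8 and 87.9 in DIDO3ΔE16, and 118, 124 and 122 in DIDO3ΔCT+HADIDO3. The mutants lay on either side of WT without overlap. Its log2 difference from WT was -0.19 ± 0.036 SE in DIDO3ΔE16 (adjusted p = 0.0127) and 0.20 ± 0.036 in DIDO3ΔCT+HADIDO3 (adjusted p = 0.00997), both far from the fold limit. With flow cell family as a covariate, the adjusted p rose to 0.103 and 0.0632. Between the mutants, which share a flow cell family, the log2 difference was -0.42 ± 0.032 (adjusted p = 0.000376).

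Ocln (chr13:100495367-100498813, reverse strand) encodes occludin, a membrane protein of tight junction strands. The site adds up 4 features with identical coordinates. It had 17.3, 15.6 and 18.4 TPM in WT, 14.3, 15.4 and 15.9 in DIDO3ΔE16, and 13.2, 13.3 and 15.6 in DIDO3ΔCT+HADIDO3. Most of this TPM lay in the feature uc011zdy.1, which was lowest in DIDO3ΔCT+HADIDO3 replicate 3 (11.7 TPM). The rest of the 15.6 TPM in that library lay in the other features, each at 0.084 TPM or less in every other library. WT was at the upper end, with overlap between WT and DIDO3ΔE16. The log2 difference from WT was -0.23 ± 0.085 SE in DIDO3ΔE16 (adjusted p = 0.0979) and -0.39 ± 0.095 in DIDO3ΔCT+HADIDO3 (adjusted p = 0.0275, short of the fold limit; adjusted p = 0.198 with flow cell family as a covariate). The coverage of the summed site was 6.23 to 12.1 reads per base. The highest value was that of DIDO3ΔCT+HADIDO3 replicate 3, where uc011zdy.1 alone had 9.09.

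The claudins differed from each other. Cldn4 (chr5:134943124-134946112, reverse strand) encodes a claudin of tight epithelia. It had 562, 316 and 637 TPM in WT, 198, 205 and 408 in DIDO3ΔE16, and 131, 136 and 131 in DIDO3ΔCT+HADIDO3. The DIDO3ΔCT+HADIDO3 libraries were below all others, while WT replicate 2-3 lay below DIDO3ΔE16 replicate 3. Cldn4 fell to 0.256 of WT in DIDO3ΔCT+HADIDO3 (log2 -1.97 ± 0.29 SE, adjusted p = 0.00601). In DIDO3ΔE16 the log2 difference was -0.99 ± 0.42 (adjusted p = 0.142). With flow cell family as a covariate these values were -1.35 (adjusted p = 0.00423) and -0.37 (adjusted p = 0.664).

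The Cldn4 site shares 1514 bases with that of Mettl27, a methyltransferase-like gene on the opposite strand. In WT replicates 1 and 4 and DIDO3ΔE16 replicate 3, where Cldn4 was highest, 3 of the 4 Mettl27 features had 18.6, 18.7 and 20.9 TPM each; in the other 6 libraries the same 3 features were listed at 0. Among those 6 libraries Cldn4 had 316 TPM in WT replicate 2-3, 198 and 205 in DIDO3ΔE16 replicates 1 and 2, and 131 to 136 in DIDO3ΔCT+HADIDO3, the same order of groups. The part of the overlap in the differences of Cldn4 was not tested. The doubt about strand given for Jam2 holds at this site and at the overlaps of Cldn6 and Cldn7 too.

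Cldn6 (chr17:23681724-23684446, forward strand) encodes a claudin of early embryos and pluripotent cells. It had 9.74, 12.8 and 13.5 TPM in WT, 17.7, 17.1 and 18.1 in DIDO3ΔE16, and 9.33, 11.9 and 12 in DIDO3ΔCT+HADIDO3. DIDO3ΔE16 was higher than both other groups without overlap. The log2 difference from WT was 0.50 ± 0.15 SE (adjusted p = 0.0517), and that from DIDO3ΔCT+HADIDO3 was 0.695 ± 0.10 (adjusted p = 0.00365), just under the fold limit. Cldn6 shares 1272 bases with Cldn9 on the opposite strand, another claudin gene with a far higher level. Cldn9 had 398 to 430 TPM in WT, 245 to 271 in DIDO3ΔE16 and 168 to 172 in DIDO3ΔCT+HADIDO3. It fell in both mutants (log2 -0.75 ± 0.054 and -1.39 ± 0.049 relative to WT, adjusted p = 0.000772 and 0.000108). Its order of groups was that of Cdh1 and Epcam and not that of Cldn6.

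Cldn7 (chr11:69967718-69969886, forward strand) encodes the claudin that EpCAM binds. It had 109, 150 and 144 TPM in WT, 97.0, 1.26 and 96.0 in DIDO3ΔE16, and 155, 148 and 146 in DIDO3ΔCT+HADIDO3. The 3 DIDO3ΔE16 libraries were below all others, but replicate 2 was far from the rest of its group. The site adds up 2 features with identical coordinates, which had 0.399 and 0.862 TPM in that library. Of sites with 2 or more features or an overlap, at a mean of at least 10 TPM, 40.8% differed by more than 2-fold within a group. The log2 difference of DIDO3ΔE16 from WT was -2.58 ± 1.87 SE (adjusted p = 0.355) and -0.53 (adjusted p = 0.0959) without DIDO3ΔE16 replicate 2. Without that library Cldn7 was lower in DIDO3ΔE16 than in DIDO3ΔCT+HADIDO3 by a log2 difference of -0.61 (adjusted p = 0.00254), still short of the fold limit, beside -2.66 ± 1.87 (adjusted p = 0.301) with it. In DIDO3ΔCT+HADIDO3 the difference was 0.063 ± 0.14 (adjusted p = 0.762). The site shares 708 bases with Elp5 on the opposite strand, a subunit gene of the Elongator complex, which had 108 to 129 TPM in WT, 43.0 to 46.8 in DIDO3ΔE16 and 64.0 to 66.0 in DIDO3ΔCT+HADIDO3. Elp5 had 46.8 TPM in DIDO3ΔE16 replicate 2, within the range of its group.

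Tjp1 (chr7:65294165-65297572, reverse strand) encodes the scaffold ZO-1. Its 2 features with identical coordinates added up to 128, 9.30 and 109 TPM in WT, 101, 93.5 and 19.8 in DIDO3ΔE16, and 93.0, 27.9 and 20.1 in DIDO3ΔCT+HADIDO3. Every group held libraries at 93.0 TPM or above and libraries at 27.9 TPM or below, and all groups overlapped. The site shares no base with another site. The log2 differences from WT were 0.11 ± 1.31 SE and -0.55 ± 1.27 (adjusted p = 0.961 and 0.772), and their sign changed when single libraries were left out (-1.11 in DIDO3ΔE16 without WT replicate 2-3, and 0.11 in DIDO3ΔCT+HADIDO3 without WT replicate 1). Of sites with 2 or more features and no overlap with another site, 35.4% (989 of 2795) differed by more than 2-fold within a group, beside 0.652% of sites with 1 feature and no overlap. No direction can be given for Tjp1 at this spread.

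**Figure D4:**
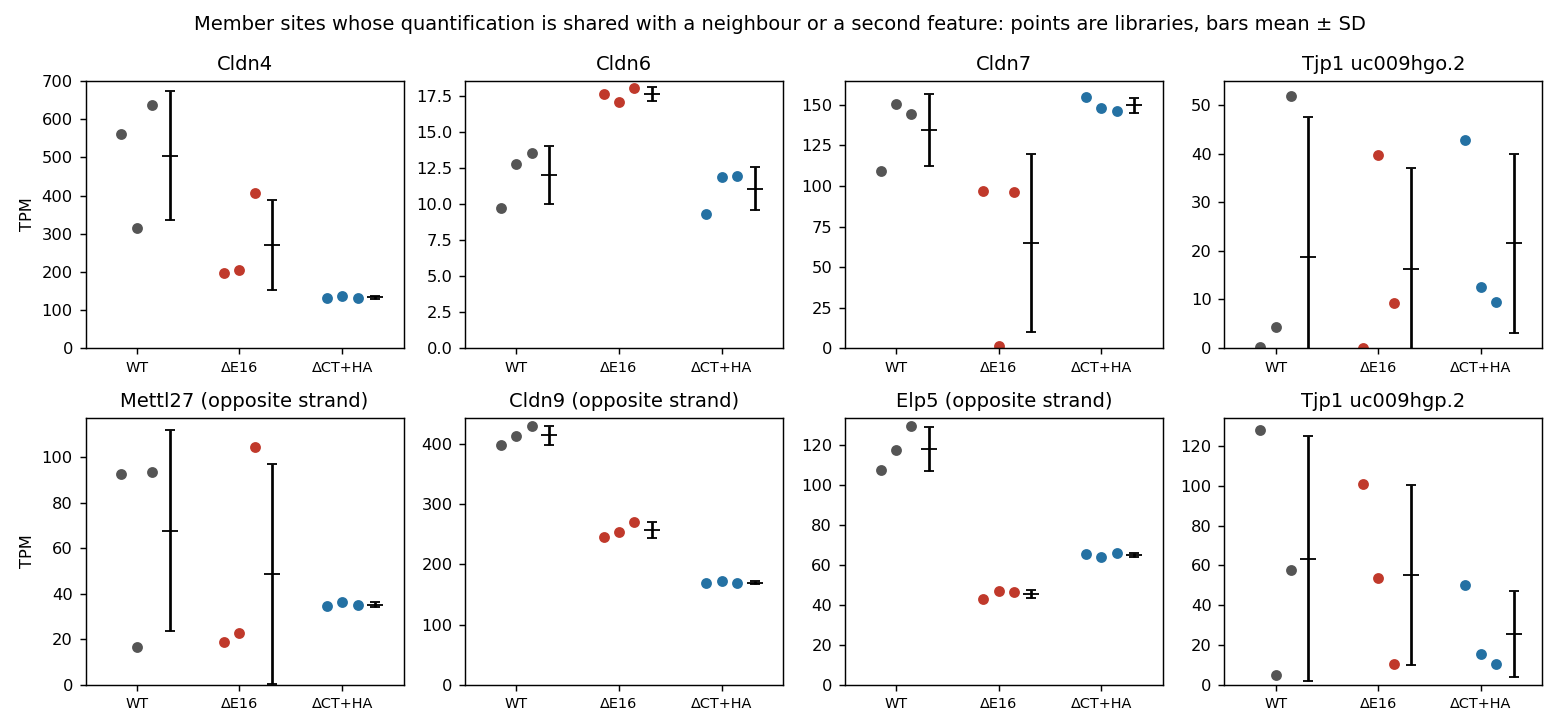
TPM (vertical axes, each from 0) per library and group of Cldn4, Cldn6 and Cldn7 above the site that overlaps each on the opposite strand, and of the 2 features of Tjp1 with identical coordinates (right column); points are libraries and bars mean ± SD, ending at 0. Cldn4 and Mettl27 are high in the same 3 libraries, Cldn7 is at 1.26 TPM in DIDO3ΔE16 replicate 2 while Elp5 is not low there, and the low libraries of Tjp1 are low in both features. The split between the Tjp1 features also varies. In replicate 1 of WT and of DIDO3ΔE16, uc009hgo.2 has 0.267 and 0 TPM and uc009hgp.2 has 128 and 101.

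The sites whose pattern over the 9 libraries was most like that of the downstream Jam2 site were found by the root mean square difference of centred log2(TPM + 0.1). Among 11355 sites of other genes with a mean of at least 10 TPM they were Soga1 (0.151), Guca1b (0.152) and Itga9 (0.164). Soga1 had 15.6 ± 0.384 TPM in the WT libraries (SD, n = 3), and the mutants had 58.0 ± 3.52 (DIDO3ΔE16) and 14.5 ± 0.592 (DIDO3ΔCT+HADIDO3). Most like Cdh1 were Prrc1 (0.028), Ide (0.048) and Dusp4 (0.055), among 11356 sites. Prrc1 had 72.4 ± 1.05 TPM in the WT libraries, against 56.5 ± 0.938 (DIDO3ΔE16) and 44.4 ± 0.312 (DIDO3ΔCT+HADIDO3). These are descriptions of likeness over 9 libraries.

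The other genes of the same junctions were described by lists, each gene by its most abundant site. Many of the sites named below, such as those of Crb3, Magi1, Esrp1, Pkp3 and Grhl2, have 2 or more features or overlap another site. Of sites of this kind with a mean of at least 10 TPM, 40.8% (2940 of 7214) differed by more than 2-fold within a group. Over the most abundant site of every gene tested, 11.5% were called higher and 4.46% lower in DIDO3ΔE16 relative to WT. In DIDO3ΔCT+HADIDO3 relative to WT 10% were called higher and 8.09% lower. The median log2 difference over all genes was -0.0023 and -0.048.

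Among 12 further adherens junction genes (catenins, other cadherins, nectins, Afdn and Vcl), 1 was called lower in each mutant and 0 higher (3 and 2 were higher at an unadjusted p under 0.05). Nectin3, a nectin of adherens junctions, fell in DIDO3ΔE16 (26.2 ± 0.922 against 45.1 ± 3.39 TPM; log2 -0.84 ± 0.058, adjusted p = 0.000695). Cdh2, which encodes N-cadherin, was at 2.15 ± 0.375 TPM in DIDO3ΔCT+HADIDO3 and at 3.41 ± 0.302 in WT (log2 -0.75 ± 0.15, adjusted p = 0.0156). The median of the list was 0.095 in DIDO3ΔE16 and -0.26 in DIDO3ΔCT+HADIDO3. That of the 9 member genes, each also by its most abundant site, was -0.23 and -0.39.

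Of 28 further tight junction genes, 25 were tested. In DIDO3ΔE16 5 were called lower and 1 higher, with a median of -0.44. Those called lower included Marveld2, which encodes tricellulin, a relative of occludin (8.10 ± 0.230 against 19.1 ± 1.71 TPM, log2 -1.29), Marveld3 of the same family (log2 -1.53), the polarity scaffold Patj (log2 -1.41) and Cldn3 (log2 -1.06). Cldn15 was called higher, at 6.11 ± 0.720 against 0.443 ± 0.193 TPM (log2 3.52 ± 0.34, adjusted p = 0.00170). In DIDO3ΔCT+HADIDO3 5 were called lower and 2 higher, with a median of -0.37. Here the lower genes included Jam3, the third JAM (27.5 ± 12 against 64.0 ± 1.51 TPM, log2 -1.43, adjusted p = 0.0404, at a site that overlaps another on the opposite strand), Cldn9, the polarity gene Crb3 (log2 -1.37) and the scaffold Magi1 (log2 -1.27). Cldn15 (log2 1.27) and Esam, an adhesion molecule related to the JAMs (20.6 ± 0.434 against 8.50 ± 0.419 TPM, log2 1.16), were higher.

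Among 12 desmosome and keratin genes, 4 were called lower and 1 higher in DIDO3ΔE16, and 1 lower and 1 higher in DIDO3ΔCT+HADIDO3. In DIDO3ΔE16 the plakophilin Pkp2 (log2 -1.08), the desmocollin Dsc2 (-0.98), Pkp3 (-0.86) and Perp (-0.79) fell, and desmoplakin (Dsp) rose from 5.93 ± 0.257 to 13.9 ± 0.980 TPM (log2 1.15). In DIDO3ΔCT+HADIDO3 Pkp2 fell (log2 -0.75) and the desmoglein Dsg2 rose (log2 0.74). Of 14 regulators and enzymes of epithelia, 12 were tested. The splicing regulator Esrp1 fell in DIDO3ΔE16 (16.9 ± 0.450 against 51.5 ± 1.16 TPM, log2 -1.66 ± 0.041, adjusted p = 5.74e-05) and in DIDO3ΔCT+HADIDO3 (14.3 ± 0.735 TPM, log2 -1.95 ± 0.045, adjusted p = 5.3e-05). In DIDO3ΔCT+HADIDO3 Grhl2 (log2 -2.64), Ovol2 (-0.93) and Grhl1 (-0.84), transcription factors of epithelia, were also called lower, Grhl2 with a WT spread of 83.9 ± 61.3 TPM.

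Of 12 mesenchymal genes, 7 were called higher in DIDO3ΔE16 and 0 lower (1 was lower at an unadjusted p under 0.05), with a median of 0.79. They included the repressors of Cdh1 Snai1 (10.3 ± 1.14 against 5.43 ± 0.225 TPM, log2 0.85) and Zeb2 (log2 1.01), besides Twist2 (1.41) and S100a4 (1.11). Zeb1, another repressor of Cdh1, was also called higher there (17.7 ± 0.779 against 9.53 ± 0.617 TPM, log2 0.83, adjusted p = 0.00112). In DIDO3ΔCT+HADIDO3 1 was called higher, again Zeb1 (21.4 ± 2.31 TPM, log2 1.06), and 1 lower, S100a4 (0.151 against 2.44 TPM, log2 -3.44). The summed level of the list was 633 to 691 TPM in the WT libraries, 165 to 668 in those of DIDO3ΔE16 and 614 to 636 in those of DIDO3ΔCT+HADIDO3. Most of this sum was Fn1, a site of 7 features that was not called. Fn1 had 544 to 601 TPM in WT, 27.5 to 537 in DIDO3ΔE16 and 491 to 516 in DIDO3ΔCT+HADIDO3. The sum thus says little about the called genes. Of the feeder fibroblast markers, too, most were higher in DIDO3ΔE16, where 7 of the 8 tested genes were called higher, among them Pdgfrb (log2 1.73), Col3a1 (1.43), Col1a1 (1.24) and Col1a2 (1.0). In DIDO3ΔCT+HADIDO3 4 of the 6 tested were lower, among them Col1a2 (0.239 ± 0.00889 against 18.2 ± 1.68 TPM, log2 -5.84) and Fbln2 (log2 -3.87), and Pdgfrb (2.82) and Thy1 (1.40) were higher. The part of feeder cells in the mesenchymal genes was not tested. Of 12 ESC markers, 0 were called in DIDO3ΔE16 (1 higher and 3 lower at an unadjusted p under 0.05); in DIDO3ΔCT+HADIDO3 Zfp42 was called higher (log2 1.65) and Fgf4 (-0.87), Lin28a (-0.84) and Klf4 (-0.75) lower.

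**Figure D5:**
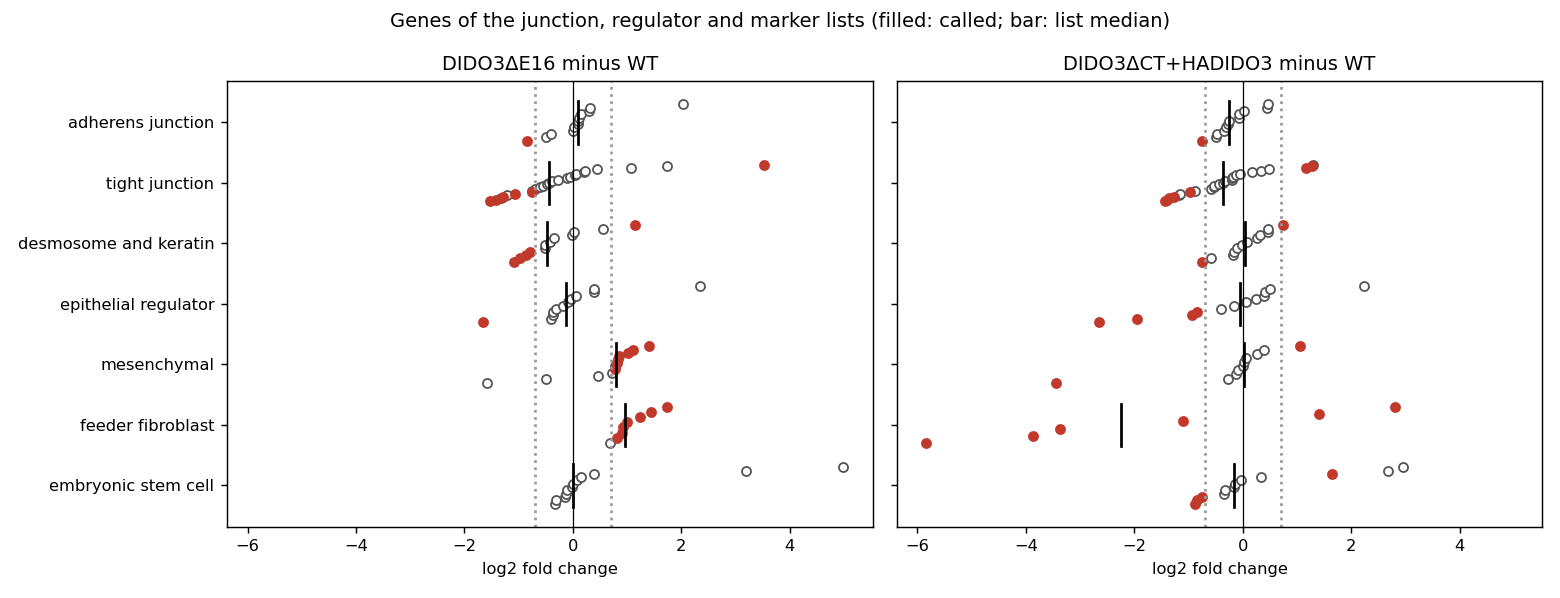
Log2 fold change (horizontal axis) of each tested gene of 7 lists (vertical axis) in each mutant relative to the same WT libraries, with called genes filled, dotted lines at the fold limit of 0.7 and a bar at the median of each list. The tight junction list has its median at -0.44 and -0.37, and the mesenchymal list at 0.79 and 0.017.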

How the data were processed

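RNA-seq of 9 libraries was used. The authors mapped paired reads with BWA-MEM (0.7.15) to mm10, dropped duplicates and ran StringTie (1.3.3) on UCSC 3′UTRs with 2000 bases added. The TPM per feature and the mean coverage (signal) were deposited by the authors as StringTie made them, without scaling between libraries. Sites were named from GENCODE M21 (mm10). Here TPM were summed over features with identical coordinates, scale factors came from trimmed means of log2 ratios between libraries (30% from each end), and log2(TPM + 0.1) was fitted with limma (3.58.1; R 4.3.3; trend and robust moderation; 2-sided) over sites above 0 in every library compared. The authors used edgeR, which needs counts; read counts were not used here. The procedure was tested on simulated data. Summaries used Python (3.11.15). Members and lists were chosen with earlier results of these data known. Named genes are all members, genes whose sites overlap them, at most 4 called genes per list, direction and comparison with WT, the 3 sites most like the downstream Jam2 site and Cdh1, and Dido1. Alternatives covered pseudocount, filter, scaling, model, flow cell, summing, thresholds, leaving out libraries and the replicate block; sites sharing no base with another feature were added after seeing the data.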

Additional observations from a re-analysis of the deposited data

Results flagged for a closer look

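The downstream site of Jam2 moved in opposite directions in the mutants relative to WT: all 3 DIDO3ΔE16 libraries lay above and all 3 DIDO3ΔCT+HADIDO3 libraries below the WT libraries. The direct limma test of DIDO3ΔE16 against DIDO3ΔCT+HADIDO3 gave a log2 difference of 2.31 (adjusted p = 6.73e-06), with 3 of 3 DIDO3ΔE16 libraries higher. Groups of 3 libraries are too small for the test of single outlying samples.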

How the results depend on the processing

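The number of called sites moved with the thresholds and the sites tested. Without the fold threshold, 4, 7 and 6 of the 10 sites passed in DIDO3ΔE16 against WT, DIDO3ΔCT+HADIDO3 against WT and DIDO3ΔE16 against DIDO3ΔCT+HADIDO3. Among sites free of any overlap with other features, an alternative chosen after seeing the data that leaves 4 member sites, 0, 2 and 0 were called by limma, and 4 had an unadjusted p under 0.05 in each comparison. Between the mutants, 3 were called with a mean TPM of at least 1, and 2 with quantile normalization or with 1 fit of all 9 libraries, the additional sites being Cldn6 and, in the first, Cldn4. Leaving out 1 library gave 1 called site in DIDO3ΔE16, 3 to 4 in DIDO3ΔCT+HADIDO3 and 1 to 2 between the mutants (2 without DIDO3ΔE16 replicate 2 or without DIDO3ΔCT+HADIDO3 replicate 2 or 3). The downstream share of Jam2 then differed from WT by 26.4 to 29.2 points in DIDO3ΔE16 and by -19.6 to -16.7 in DIDO3ΔCT+HADIDO3, and by 45.7 to 46.4 points between the mutants.

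Tjp1 reversed in DIDO3ΔE16 without WT replicate 2-3 (log2 -1.11), without DIDO3ΔE16 replicate 1 (-0.31) and without DIDO3ΔE16 replicate 2 (-0.25), and leaving out 1 library gave -1.11 to 0.87. In DIDO3ΔCT+HADIDO3 it reversed with flow cell family as a covariate (1.89), with 1 flow cell family only (1.89), without WT replicate 1 (0.11) or 4 (0.015) and with the replicate block (0.48 and 0.23); leaving out 1 library gave -1.76 to 0.11. Cldn7 reversed there with the covariate (-0.11), with 1 flow cell family (-0.11) and without WT replicate 1 (-0.090; -0.090 to 0.15 over the libraries left out). The causes were not tested.

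Replicate numbers did not pair the libraries: deviations from group means of same-numbered libraries correlated by -0.0297 to 0.0351. A replicate block, with WT replicate 2-3 as replicate 2 or 3, gave 0 called sites in DIDO3ΔE16 (3 and 5 at an unadjusted p under 0.05) and 0 in DIDO3ΔCT+HADIDO3 (6 and 5), with fewer libraries and degrees of freedom left; between the mutants it gave 1. Of the values of single sites under all alternatives, 624 kept their direction and side of the threshold, 18 passed it newly, 12 fell short of it and 12 reversed.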
